A study of Homo sapiens with 12 samples.

Results

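The NEAT1 and MALAT1 domain is a window of 180 kb on chromosome 11 (chr11:65120000-65300000, hg19) that holds the genes of 2 long noncoding RNAs, NEAT1 at about 65190300 to 65213000 and MALAT1 at about 65265200 to 65273900, both read in the direction of rising coordinates. It was examined in H3K27ac ChIP-seq peak lists of 3 human pancreatic cancer cell lines, SUIT2, BxPC3 and Panc327. Every peak that shared at least 1 bp with the window was taken, which gave 105 of the 190777 peaks in the 6 lists. The window was chosen by peak width: earlier results of these same lists had shown the widest SUIT2 peak there, so the breadth of its SUIT2 peaks is given as a description and was not tested. The positions of both genes came with that choice and are approximate.

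All cells were untreated and grown in standard culture. SUIT2 cells were derived from a metastasis in the liver and BxPC3 cells from a primary tumour of the pancreas, and the labels describe Panc327 only as a human pancreatic cancer line. Each line had 2 H3K27ac libraries and 2 input libraries, 12 samples in all, and the input libraries were not analysed here as samples of their own. SIRT6, the deacetylase in the title of the series, was not perturbed in any of these samples. The labels do not say whether the libraries of a line came from separate cultures, so the spread between them may be technical. With 2 libraries against 2, an exact permutation test cannot go under p = 0.333, so values are given per library with no test.

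H3K27ac, the acetylation of lysine 27 of histone H3, marks active promoters and enhancers, and long unbroken peaks are typical of highly active loci. NEAT1 RNA is the scaffold of paraspeckles, nuclear bodies that hold certain RNA-binding proteins and RNAs, and it is known to be induced by several kinds of cell stress. Its short and long isoforms share 1 start, and the long isoform is the one that builds the paraspeckle. MALAT1 is an abundant nuclear RNA that gathers at nuclear speckles, where splicing factors are stored, and its 3′ end is cut to release MASCRNA, a small tRNA-like RNA. In the RefSeq gene table of GRCh38.p14, used here for gene order only, SLC25A45 and FRMD8 come before NEAT1. MIR612, FAUP4, ENEMAL and LINC02736 are listed between NEAT1 and MALAT1. TALAM1, an RNA antisense to MALAT1, MASCRNA and SNRPGP19 are listed after MALAT1. This order does not show whether a listed gene overlaps NEAT1 or MALAT1.

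Every list had a peak over the start of MALAT1, and its promoter is shown. The start of NEAT1 also lay under a peak in every list, but NEAT1 had no entry in the promoter set used here. RefSeq (GRCh38.p14) lists 2 MALAT1 starts, the second 1307 bp downstream of the first, and each sequence runs from 250 bases before to 50 bases after its start, on the strand of the gene. Capitals mark motif matches on either strand.
MALAT1 first start: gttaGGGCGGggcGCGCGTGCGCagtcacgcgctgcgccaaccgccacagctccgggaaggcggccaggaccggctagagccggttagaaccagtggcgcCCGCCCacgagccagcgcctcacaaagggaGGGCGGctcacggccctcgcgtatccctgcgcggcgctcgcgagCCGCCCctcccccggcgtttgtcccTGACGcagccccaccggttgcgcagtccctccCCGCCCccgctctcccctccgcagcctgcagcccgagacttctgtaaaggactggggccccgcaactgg
MALAT1 second start: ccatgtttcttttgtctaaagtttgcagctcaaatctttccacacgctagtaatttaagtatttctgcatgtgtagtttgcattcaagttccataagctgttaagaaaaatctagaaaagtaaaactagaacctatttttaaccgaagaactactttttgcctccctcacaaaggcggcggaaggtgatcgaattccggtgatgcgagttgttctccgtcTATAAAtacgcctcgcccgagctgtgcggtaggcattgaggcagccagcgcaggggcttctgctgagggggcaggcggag
The first promoter was rich in G and C (73.7%, with 37 CpG, against a median of 14 CpG over all 35116 RefSeq promoters of that length). It held 5 GC boxes (GGGCGG), the motif of SP1-type factors, which began at -246, -150, -120, -76 and -19 counted from the start. It also held 1 NRF1 motif (GCGC, any 2 bases, GCGC) at -237 and 1 CRE half-site (TGACG) at -51, and none of these matches overlapped. The second promoter had 46.0% G and C and 14 CpG, and its single match was a TATA box (TATAAA) at -30. A GC box was present in 45.0% of all promoters, a TATA box in 11.5%, a CRE half-site in 24.6% and an NRF1 motif in 8.32%. The CCAAT box (CCAAT), the AP-1 site (TGANTCA), the core of the hypoxia element (ACGTG), the CEBP-ATF element of stress response genes (TGATGNAA), the ETS site (CCGGAAG) and the E-box (CACGTG) were also searched on both strands. None of these 6 had a match in either window.

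SUIT2 carried H3K27ac peaks over most of the domain, whereas BxPC3 and Panc327 carried them over 22.7 to 30.6% of it. Peaks covered 120 and 124 kb of the 180 kb in the 2 SUIT2 libraries, 43.4 and 49.3 kb in the BxPC3 libraries, and 40.9 and 55.1 kb in the Panc327 libraries. Both SUIT2 values lay above the other 4, and the values of BxPC3 and Panc327 overlapped. The same order, both SUIT2 libraries above the other 4, was found in 36.8% of the 10866 windows of this length with a peak in any list, so the order by itself was common. The mean covered length was 122.2 ± 2.48 kb in SUIT2, 46.3 ± 4.14 kb in BxPC3 and 48.0 ± 9.997 kb in Panc327 (SD, n = 2 each). SUIT2 exceeded BxPC3 by 75.9 kb (2.64-fold) and Panc327 by 74.2 kb (2.55-fold), differences larger than the spread between libraries. BxPC3 minus Panc327 was -1.65 kb, within that spread. The window was chosen for a wide SUIT2 peak, which favours a SUIT2 excess, so its size against the spread is no test. Over all peaks of the genome, SUIT2 covered 1.19 times the length of BxPC3 and 1.54 times that of Panc327.

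**Figure D1:**
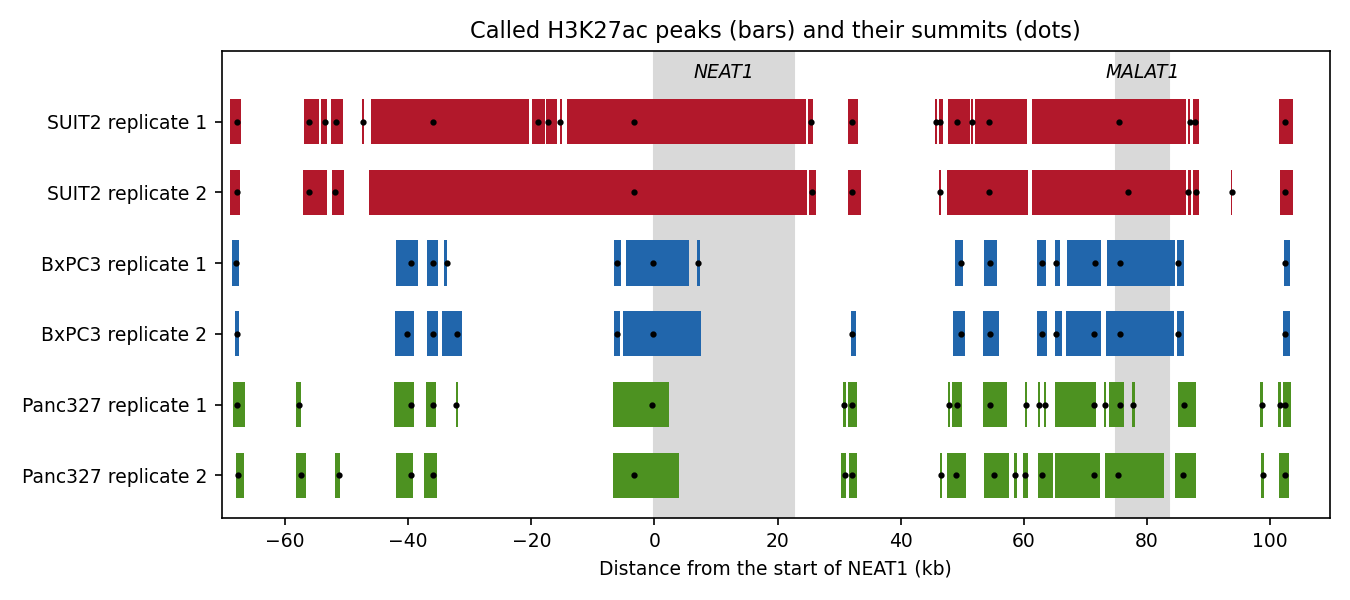
Called H3K27ac peaks (bars) and their summits (dots) in each library along the domain, by distance from the start of NEAT1 in kb; grey bands are NEAT1 and MALAT1. Wide bars run over both genes in SUIT2, while in BxPC3 and Panc327 the peaks inside NEAT1 end within 7.63 kb of its start.

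The domain was the most covered of these windows in both SUIT2 libraries and ranked near the top in the other lines. It ranked 1 of 10866 in both SUIT2 libraries, 5 and 4 in BxPC3, and 19 and 2 in Panc327. The next SUIT2 window had 108 kb in replicate 1 and 111 kb in replicate 2. The most covered window had 57.2 and 61.5 kb in the BxPC3 libraries, and 55.3 and 56.5 kb in the Panc327 libraries. The domain was therefore among the 19 most covered windows in every library. Its rank was 4 by SUIT2 minus BxPC3, where the largest difference of any window was 80.9 kb, and 6 by SUIT2 minus Panc327, where it was 89.3 kb. The window was chosen for a wide SUIT2 peak, so the SUIT2 ranks and both ranks by difference follow in part from that choice. The windows were also laid out from the edges of the domain, so other broad loci could be cut at a window edge.

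**Figure D2:**
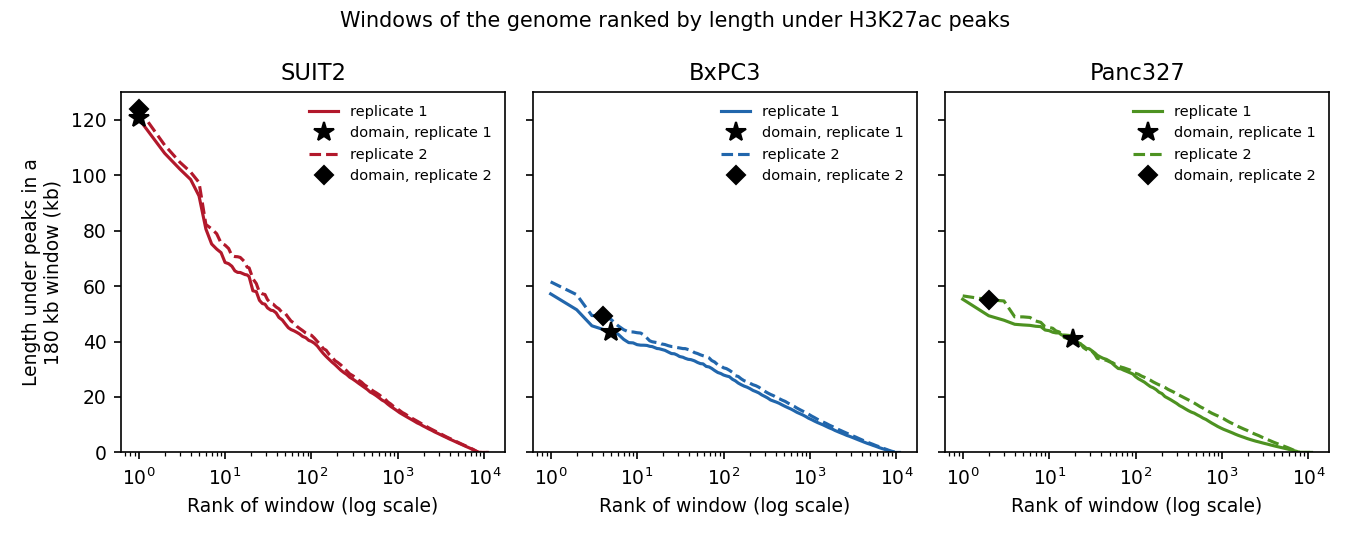
Length under H3K27ac peaks in each 180 kb window (kb) against the rank of the window within its library (log scale), 1 panel per line; stars and diamonds mark the domain in replicates 1 and 2. The domain, which was chosen for a wide SUIT2 peak, stands at rank 1 in both SUIT2 libraries and between ranks 2 and 19 in the other 4.

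Members of the set differed in width and strength within each list. SUIT2 had 21 and 13 peaks in the domain, BxPC3 15 and 15, and Panc327 22 and 19. Their median width was 1.73 and 1.95 kb in SUIT2, 1.34 and 1.69 kb in BxPC3, and 1.04 and 1.56 kb in Panc327, so a few wide peaks carried the SUIT2 length. SUIT2 had 3 peaks of at least 10 kb in each library, BxPC3 2 in each, and Panc327 0 and 1. Such widths were also commoner outside the domain in SUIT2 replicate 2, where a 13.1 kb peak ranked 174 by width in its list. A 10.3 kb peak ranked 50 in BxPC3 replicate 1, and a 10.7 kb peak ranked 28 in Panc327 replicate 2. The share of such peaks in each whole list was not counted. By the authors' −log10 q, the peak caller's significance, 4 and 3 SUIT2 peaks of the domain were in the top 1% of their list. The number was 0 and 1 in BxPC3 and 0 in both Panc327 libraries. Weak peaks were present too, and 11 and 5 SUIT2 peaks lay below the median of their list, 4 and 4 BxPC3 peaks, and 10 and 8 Panc327 peaks.

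**Figure D3:**
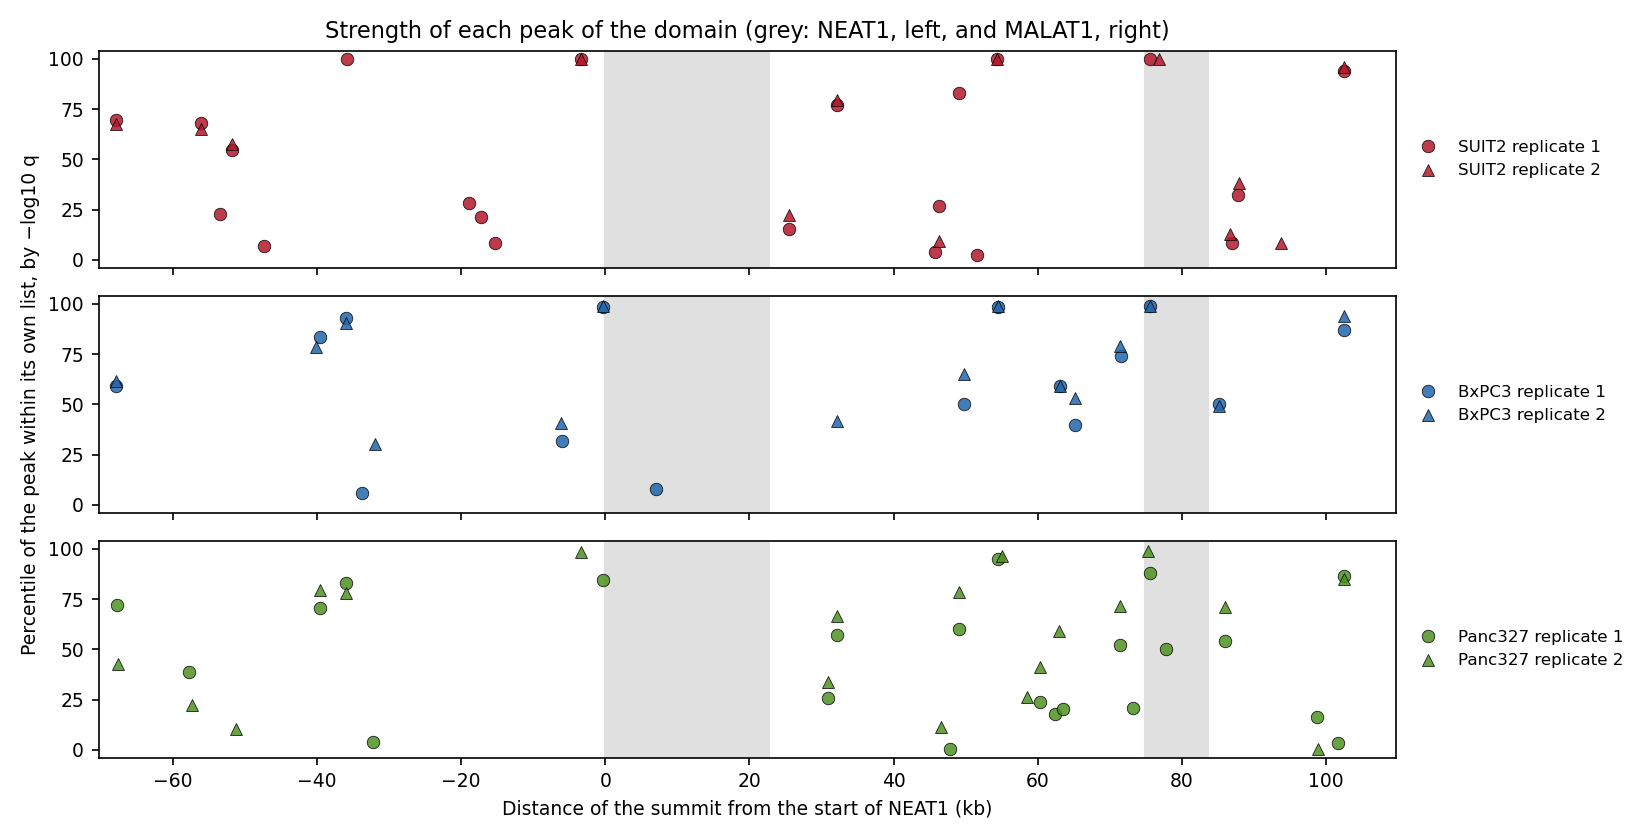
Percentile of each peak of the domain within its own list by −log10 q, against the distance of its summit from the start of NEAT1 (kb), 1 panel per line; circles are replicate 1 and triangles replicate 2, and grey bands are NEAT1 (left) and MALAT1 (right). The peaks over the starts of NEAT1 and MALAT1 and the peak 54 to 55 kb after the NEAT1 start stand near the top in SUIT2, BxPC3 and Panc327 replicate 2; in Panc327 replicate 1 they lie between 84.6 and 94.8.

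By covered share, NEAT1 was the member with the largest relative difference between lines. Its whole span of 22.7 kb lay under a peak in both SUIT2 libraries (100% each), whereas 27.1 and 33.6% of it did in BxPC3, and 10.1 and 17.7% in Panc327. Both SUIT2 libraries lay above the other 4, an order found in 34.8% of 35764 windows of this length. Coverage from end to end was found in both SUIT2 lists in 11 of those windows, NEAT1 among them, and in 0 for both lists of BxPC3 or of Panc327. NEAT1 lies within the 71.1 kb peak of SUIT2 replicate 2 that the window was chosen for. Its full coverage in that library therefore follows from the choice and is no measure of rarity. BxPC3 exceeded Panc327 by 3.73 kb (2.18-fold), an order found in 37.1% of windows. In BxPC3 and Panc327 the covered part was the start of the gene. Of the span, 15.1 kb (66.4%) was called in both SUIT2 libraries and in no other library, and 2.30 kb (10.1%) was called in all 6.

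The peak over the NEAT1 start was one of the widest of each list. It was 38.9 and 71.1 kb wide in the SUIT2 libraries, 10.3 and 12.7 kb in BxPC3, and 8.98 and 10.7 kb in Panc327. By width it ranked 7 and 1 in the SUIT2 lists, 50 and 25 in BxPC3, and 14 and 28 in Panc327. The 71.1 kb peak of SUIT2 replicate 2 (chr11:65144009-65215092) is the one the window was chosen for, and replicate 1 called 5 peaks over it, the widest 38.9 and 25.6 kb. The summit lay 3.36 kb before the start of NEAT1 in both SUIT2 libraries and 3.33 kb before it in Panc327 replicate 2. It lay close to the start in both BxPC3 libraries (0.269 and 0.273 kb before it) and in Panc327 replicate 1 (0.331 kb before it). The peak stood at percentiles 99.88 and 99.97 of the SUIT2 lists by −log10 q, 98.2 and 98.9 of the BxPC3 lists, and 84.6 and 98.4 of the Panc327 lists.

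By covered share, MALAT1 did not follow the NEAT1 pattern. Its span of 8.7 kb lay wholly under a peak in both SUIT2 and both BxPC3 libraries (100% each), and in Panc327 the covered share was 21.1 and 90.9%. The 2 Panc327 libraries differed more from each other than Panc327 replicate 2 did from the other lines, so no difference between lines is read from the Panc327 mean of 56.0 ± 49.3% (SD, n = 2). No base of MALAT1 was called in SUIT2 alone, against 66.4% of NEAT1. MALAT1 is shorter than the peak over its start in both SUIT2 and both BxPC3 libraries. These shares are therefore at their limit and cannot show a wider SUIT2 peak. End-to-end coverage was found, among 52844 windows of this length, in 229 for both SUIT2 lists, 25 for both BxPC3 lists and 2 for both Panc327 lists. The part of MALAT1 called in all 6 libraries was 1.84 kb long (21.1%) and was made of a stretch over its start and one of 0.480 kb further inside.

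The peak over the MALAT1 start was 25.02 kb wide in both SUIT2 libraries, 11.1 kb in both BxPC3 libraries, and 2.35 and 9.67 kb in Panc327. Its summit lay inside the gene in every library. The distance from the start was 0.629 and 1.96 kb in SUIT2, 0.678 and 0.661 kb in BxPC3, and 0.651 and 0.361 kb in Panc327. It was the strongest peak of the domain by −log10 q in both BxPC3 libraries (rank 429 of 34113 and 336 of 38336 peaks) and in Panc327 replicate 2 (rank 305 of 29140). In SUIT2 it ranked 14 and 34, and in Panc327 replicate 1 it ranked 3272 of 27778. The wide SUIT2 peak began 13.6 kb before the start of MALAT1 and took in the neighbouring stretch that the other lines called as separate peaks.

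The stretches around the genes were also broader in SUIT2. The 70.3 kb before NEAT1 was covered to 73.4 and 76.5% in SUIT2, 18.4 and 20.6% in BxPC3, and 20.9 and 21.9% in Panc327. The 52.2 kb between the genes was covered to 59.4 and 61.6% in SUIT2, 24.0 and 29.4% in BxPC3, and 32.2 and 42.7% in Panc327. The 26.1 kb after MALAT1 was covered to 24.7 and 25.3% in SUIT2, 11.9 and 12.1% in BxPC3, and 20.1 and 21.0% in Panc327. Both SUIT2 libraries lay above the other 4 in these 3 stretches, an order found in 35.5, 35.4 and 34.9% of windows of those lengths. The difference was largest before NEAT1, where SUIT2 covered 3.85 times the length of BxPC3 and 3.50 times that of Panc327. Among these stretches it was smallest after MALAT1, where SUIT2 covered 1.22 times the length of Panc327. The 71.1 kb SUIT2 replicate 2 peak that the window was chosen for began 46.3 kb before the start of NEAT1. The excess before NEAT1 therefore follows in part from that choice.

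**Figure D4:**
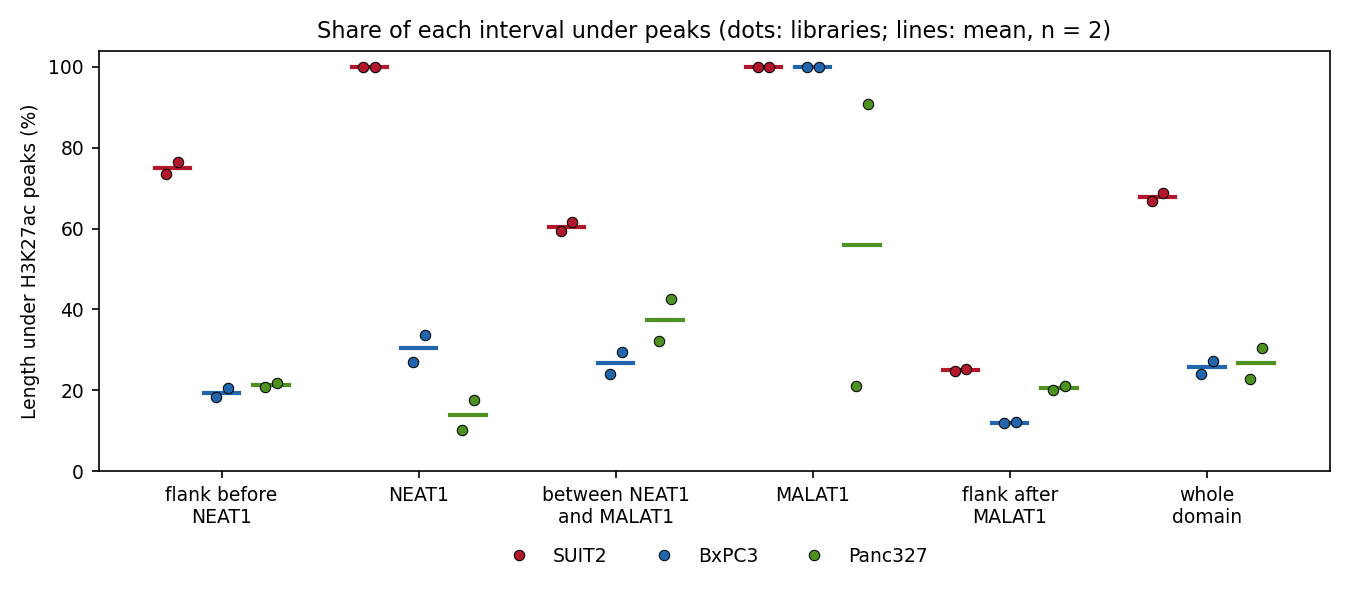
Share of each interval of the domain under H3K27ac peaks (%) in each library (dots), with the mean of the line (horizontal bars, n = 2). SUIT2 reaches 100% over both genes, BxPC3 100% over MALAT1 alone, and the 2 Panc327 libraries lie at 21.1 and 90.9% over MALAT1.

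A common set of sites lay within the broad SUIT2 peaks. Every base covered in BxPC3 was also covered in each SUIT2 library (100%, which was 35.0 to 40.9% of the SUIT2 length), and 91.6 to 92.7% of the Panc327 bases were (30.2 to 42.4% of the SUIT2 length). The window was chosen for a broad SUIT2 peak, which raises these shares, and they were not counted over the genome. Of the 129.7 kb covered in any list, 26.8 kb (20.6%) was covered in all 6, against 16.6% of covered bases over the genome. A further 56.8 kb (43.8%) was covered in both SUIT2 lists and no other, against 20.4% over the genome. Both BxPC3 lists covered 0 kb alone (0%, against 9.20% over the genome), and both Panc327 lists covered 2.63 kb alone (2.03%, against 4.63%). The choice of the window also raises the share of SUIT2 alone and lowers those of BxPC3 and Panc327 alone. The Jaccard index of covered bases within the window, shared over combined length, was 0.945 between the SUIT2 libraries, 0.821 between the BxPC3 libraries and 0.662 between the Panc327 libraries. Between lines it averaged 0.379 for SUIT2 with BxPC3, 0.351 for SUIT2 with Panc327 and 0.556 for BxPC3 with Panc327. These indices depend on the covered length, which was largest in SUIT2.

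The bases called in all 6 libraries formed 15 stretches. The longest, 6.94 kb (chr11:65185664-65192604), ran from 4.64 kb before to 2.30 kb after the start of NEAT1. The next was 4.74 kb long (chr11:65257292-65262031) and ended 3.17 kb before the start of MALAT1. A stretch of 2.35 kb (chr11:65264214-65266558) lay over the MALAT1 start itself. Both gene starts thus lay in stretches shared by all 3 lines.

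Beyond the gene starts, several summits recurred at nearly the same place. A summit lay 54.3 to 55.1 kb after the start of NEAT1 in all 6 lists, about 20 kb before MALAT1. It belonged to the strongest peak of the domain in both SUIT2 libraries (ranks 13 and 9 by −log10 q) and in Panc327 replicate 1 (rank 1436), and stood at percentiles 98.4 and 98.8 in BxPC3 and 96.3 in Panc327 replicate 2. Its width was 8.49 and 13.1 kb in SUIT2, 2.12 and 2.63 kb in BxPC3, and 3.86 and 4.07 kb in Panc327. The peak near the end of the window, with a summit 102.4 to 102.5 kb after the NEAT1 start, was narrow in every line, at 2.30 and 2.16 kb in SUIT2, 1.05 and 1.13 kb in BxPC3, and 1.31 and 1.56 kb in Panc327. The first peak of the window, about 68 kb before NEAT1, was likewise 1.74 and 1.62 kb wide in SUIT2, 1.07 and 0.630 kb in BxPC3, and 2.04 and 1.39 kb in Panc327. The outer peaks were therefore narrow in every line, although both were wider in SUIT2 than in BxPC3. Against Panc327, SUIT2 was wider at the peak near the end of the window, and the widths overlapped at the first peak.

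Other summits were separate peaks in BxPC3 and Panc327 and part of a wide peak in SUIT2. A summit 35.9 to 36.0 kb before NEAT1 was called in both BxPC3 and both Panc327 lists and in SUIT2 replicate 1, where its peak was 25.6 kb wide. In SUIT2 replicate 2 the position lay inside the 71.1 kb peak. A summit 71.5 kb after the start of NEAT1 was called in both BxPC3 and both Panc327 lists, and in both SUIT2 libraries it lay inside the wide peak over MALAT1. Merged over all lists, the 105 peaks formed 15 regions, of which 5 had a peak in all 6 libraries and 3 in 1 library. These counts depend on the wide SUIT2 peaks. The widest region was the 71.1 kb SUIT2 replicate 2 peak, which pooled 6 and 5 BxPC3 peaks and 4 and 3 Panc327 peaks. The share of such regions over the genome was not counted. Inside the window, the longest run with no peak in any list was 12.2 kb (chr11:65223784-65235951), between the genes.

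The edges of the window did not cut a peak. The peak nearest to the edge before NEAT1 began 1.42 to 2.31 kb inside the window, and the nearest one outside ended 16.9 to 17.9 kb away, with widths of 1.43 to 2.43 kb over the 6 libraries. The peak nearest to the other edge ended 5.90 to 6.61 kb inside, and the nearest one outside began 6.98 to 7.52 kb away. Neither neighbour outside exceeded 3.21 kb in any library, so the wide peaks stopped within the window.

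The local background changed along chromosome 11 near the domain in SUIT2. It was recovered for each peak from the authors' fold and p, and it is given relative to the genome-wide level of the same list (its 1st percentile). Over the peaks of the domain the median ratio was 1.57 and 1.49 in SUIT2, 1.57 and 1.27 in BxPC3, and 1.29 and 1.36 in Panc327. Over all peaks of each list it was 1.08 and 1.00 in SUIT2, 1.23 and 1.08 in BxPC3, and 1.26 and 1.34 in Panc327. In SUIT2 the median was 1.00 in both libraries in the 1 Mb before the window, and 1.53 and 1.44 in the 5 Mb after it. Because the level is a 1st percentile, few peaks can lie below 1.00. A lower background before the window would therefore hardly show, and the size of the change is not known. The change came before the edge of the window: in the 180 kb directly before it the SUIT2 medians were already 1.73 and 1.57, over 8 and 7 peaks. In BxPC3 the medians were 1.31 and 1.27 in the 1 Mb before the window, and 1.53 and 1.16 in the 5 Mb after it. In Panc327 they were 1.20 and 1.21 before, and 1.22 and 1.39 after.

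Covered length was also counted in stretches beside the window, which were chosen after their values were seen. In the 180 kb after the window, where the SUIT2 background was 1.64 and 1.36 times its genome-wide level, peaks covered 42.1 and 43.2 kb in SUIT2, 34.3 and 36.0 kb in BxPC3, and 33.6 and 28.3 kb in Panc327. SUIT2 there covered 1.21 times the length of BxPC3, against 2.64 times within the domain. Against Panc327 it covered 1.38 times the length there and 2.55 times within the domain. The domain was chosen for a wide SUIT2 peak and these stretches were not, so a lower ratio beside it follows in part from that choice. Over the 5 Mb after the window the ratios were 1.34 against BxPC3 and 1.52 against Panc327, and over the 180 kb before it 1.20 and 1.14. The genome-wide background was 3.29 and 3.61 reads in SUIT2, and 1.46 and 2.85 reads in Panc327. It is not given in reads for BxPC3, whose recovered pile-ups were not whole numbers. The part of this difference between libraries in the width of peaks was not tested.

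**Figure D5:**
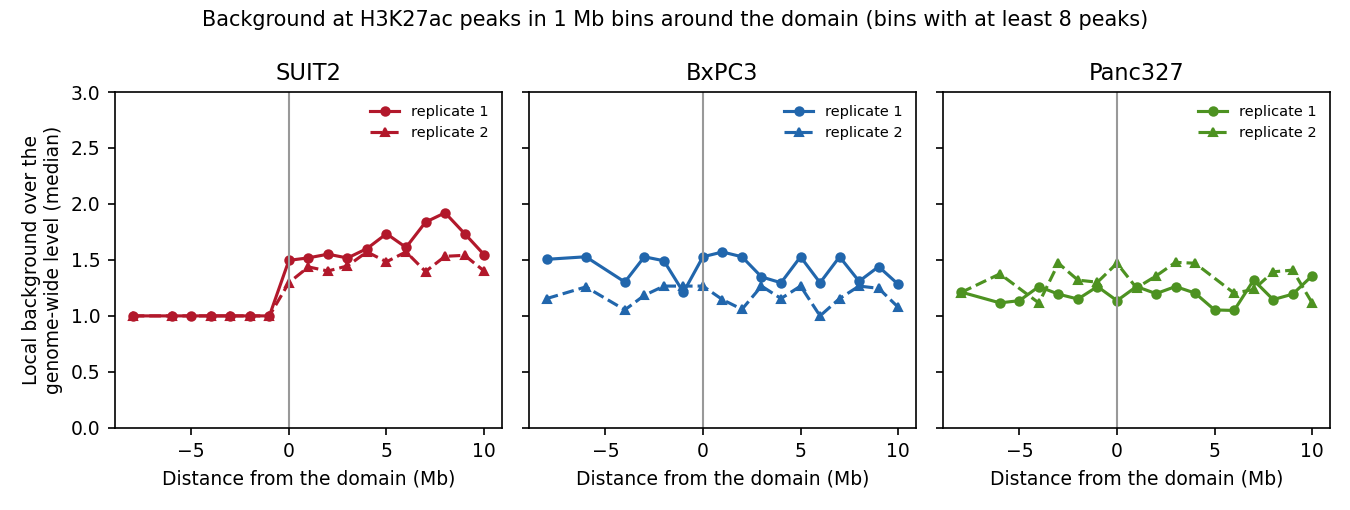
Median local background at H3K27ac peaks, as a ratio to the genome-wide level of the library, in 1 Mb bins with at least 8 peaks along chromosome 11, by distance from the centre of the domain (Mb), 1 panel per line. Both SUIT2 libraries lie at 1.00, the low end of these ratios, in every bin before the domain and between 1.30 and 1.92 from the bin centred on the domain onward.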

How the data were processed

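H3K27ac ChIP and input libraries of 3 pancreatic cancer lines were used, made from crosslinked chromatin with the KAPA HyperPrep kit, as the labels' protocols say. The submitters' processing notes name MACS2, Bowtie 1.1.1, bcl2fastq 1.8.4 and hg19; peak calling settings are not given in the sources used here. For every ChIP library there was a separate deposited peak list, so peaks were called per library, with a −log10 p of at least 10.0.

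A peak's fold, as deposited, is a ratio of pile-up to local background, and its −log10 p-value and −log10 q-value, also deposited, came from the authors' peak caller. They describe and rank peaks within a list only. The deposited score was not used. Read totals per library are unknown.

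Peaks were those overlapping the window by at least 1 bp. Covered bases were counted per library, and windows of the same length tiled chromosomes 1 to 22 and X, the domain being 1 of them. The local background was solved from fold and p, taking the fold as pile-up over background, each plus 1, and p as a Poisson tail. All peaks of the domain had a solution, and whole-number pile-ups gave the −log10 p within 0.001, or within 1e-05 of its size, in nearly all SUIT2 and Panc327 peaks and in at most 0.157% of BxPC3 peaks. The other pile-ups were solved as numbers that need not be whole. The scripts, in Python 3.11.15 with numpy 2.4.6, pandas 2.3.3 and scipy 1.17.1, were tested on simulated data. The members, the window and the motif list were chosen with earlier results of these data known. NEAT1 and MALAT1 were always named. The peaks named by rule were, in each list, the widest peak, the peak over each gene start and the peak with the highest −log10 q. The recurrent summits, the outermost peaks and the shared stretches were named after their values were seen. An hg19 gene annotation was not used here, so peaks were placed relative to the 2 gene spans alone, and the lines were not checked against marker genes. Alternatives were a −log10 q of at least 20, equal list lengths, gaps of at most 1 kb filled, peaks cut to 2 kb around the summit, other extents of the window, shifted windows and each library left out.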

Additional observations from a re-analysis of the deposited data

How the results depend on the processing

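The SUIT2 excess in covered length kept its direction and moved by no more than the spread between libraries with peaks of −log10 q of at least 20, equal list lengths or gaps of 1 kb filled. Without 1 library at a time, SUIT2 minus BxPC3 was 72.9 to 78.8 kb, SUIT2 minus Panc327 67.1 to 81.3 kb and BxPC3 minus Panc327 -8.72 to 5.42 kb. From the start of NEAT1 to the end of MALAT1 the 2 SUIT2 differences were 33.4 and 35.4 kb, and in the window extended by its own length on both sides 86.4 and 88.2 kb. With each peak cut to 2 kb around its summit, SUIT2 minus BxPC3 was 0.752 kb and SUIT2 minus Panc327 reversed to -2.11 kb. The covered share of NEAT1 was then 0% in SUIT2, 4.28% in BxPC3 and 1.47% in Panc327, and that of MALAT1 20.9% in SUIT2 and 19.2% in BxPC3. That setting removes breadth by construction and says nothing further about the excess. BxPC3 minus Panc327 also changed sign with a −log10 q of at least 20 (0.025 kb) and in both other extents (1.96 and 1.78 kb).

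Left-out libraries gave NEAT1 shares of 100% in SUIT2, 27.1 to 33.6% in BxPC3 and 10.1 to 17.7% in Panc327, and MALAT1 shares of 100% in SUIT2 and BxPC3 and 21.1 to 90.9% in Panc327. The Panc327 share of MALAT1 was thus decided by which library was kept. Windows with both SUIT2 libraries above the others numbered 4030 to 4491 without 1 library, against 4003 with all. Leaving out a library can only keep or raise this count, so the direction of that change was fixed in advance. All 105 peaks had at least 50% of their length inside the window.

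No paired analysis was possible because the results come from no test. Read totals are unknown and the gene positions are approximate.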
